A study of Mus musculus with 30 samples.

Results

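The 39 genes described here belong to the G1/S transition and to DNA replication. They were taken by name from the 48709 genes of the deposited table, and all 39 were found there. The cells were C2C12, an established line of mouse myoblasts that stop dividing and fuse into myotubes when the serum is lowered. Potassium chromate, a source of hexavalent chromium, was added to the differentiation medium at 2 or 5 µM, and 0 µM served as control. Libraries were sampled on days 1, 2 and 4 at each dose and on day 0 at 0 µM, which gives 10 groups of 3 RNA-seq libraries. Day 0 had no chromate, so it is the common starting point of all doses and no group of treated cells exists for it. The labels number the 3 libraries of a group as biological replicates and give no culture or date, so p-values measure only the spread between these libraries. The line is a single immortalised line, so the libraries hold no variation between animals.

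A cell commits to replication when cyclin E activity and the E2F transcription factors switch on the genes for the replication machinery. In late mitosis and G1 the origin recognition complex, Cdc6 and Cdt1 load the ring-shaped MCM helicase onto origins, a step called licensing. At the start of S phase Mcm10, Cdc45 and the GINS complex turn the loaded ring into a running helicase. Polymerase alpha with primase then starts each strand, and the clamp PCNA, placed by the RFC loader, keeps the polymerases on the template. Ribonucleotide reductase, thymidylate synthase and thymidine kinase supply the nucleotides, and CAF-1, Uhrf1 and Slbp see to histones and DNA methylation behind the fork. Myoblasts leave the cell cycle before they fuse, and these genes are known to be turned down as that happens.

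The E2F site is the control element these genes are best known for, so the promoters of 5 of them are printed. They were chosen to show 3, 1 and none of the E2F words searched in the 150 bases printed. Promoter sequence from RefSeq (GRCm38.p6, 250 bases before to 50 bases after the start) was at hand for 33 of the 39 genes. Each line below runs 5′ to 3′ in the direction of the gene and holds the 150 bases before its start, with the E2F words in capitals.
Mcm6 (chr1:128359706-128359855, minus strand): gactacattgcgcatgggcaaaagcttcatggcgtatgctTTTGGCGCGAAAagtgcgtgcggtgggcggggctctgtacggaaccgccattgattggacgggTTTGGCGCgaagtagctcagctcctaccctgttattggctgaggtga
Mcm5 (chr8:75109359-75109508, plus strand): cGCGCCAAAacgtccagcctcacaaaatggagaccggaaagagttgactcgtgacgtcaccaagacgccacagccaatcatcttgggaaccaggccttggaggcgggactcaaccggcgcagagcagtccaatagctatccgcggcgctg
Cdc6 (chr11:98908001-98908150, plus strand): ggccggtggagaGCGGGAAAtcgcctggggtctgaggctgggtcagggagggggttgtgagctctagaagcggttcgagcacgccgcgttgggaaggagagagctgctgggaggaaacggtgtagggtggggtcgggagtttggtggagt
Pola1 (chrX:93632156-93632305, minus strand): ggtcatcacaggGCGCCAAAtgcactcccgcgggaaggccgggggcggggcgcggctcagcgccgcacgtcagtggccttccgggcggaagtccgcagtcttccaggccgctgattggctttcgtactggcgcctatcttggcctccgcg
Chaf1a (chr17:56040266-56040415, plus strand): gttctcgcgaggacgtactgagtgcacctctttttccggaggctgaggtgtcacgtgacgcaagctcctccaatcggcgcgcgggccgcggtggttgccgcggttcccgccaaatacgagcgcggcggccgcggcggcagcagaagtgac
The words searched were TTTCCCGC, TTTGGCGC, TTTCGCGC and TTTGCCGC on both strands, and the first run of capitals in Mcm6 is a pair of overlapping words on opposite strands. In the full window of 300 bases, 13 of the 33 genes held a word (39.4%), against 704 of 27025 genes with a promoter in the same set (2.61%). The 13 were Orc1, Cdc6, Cdt1, Mcm3, Mcm5, Mcm6, Mcm7, Pola1, Pold1, Rfc3, Lig1, Uhrf1 and E2f2. Mcm5 held 2 words in this window, of which the printed bases show 1. The word TTTGAA, the core of the CHR element of mitotic genes, was found in 4 of the 33 promoters (12.1%), in 10 of 13 promoters of mitosis markers (76.9%) and in 20.2% of all. CCAAT was found in 20 of the 33 (60.6%), in 11 of the 13 (84.6%) and in 41.1% of all. A match is a description of these letters and not a measured binding site. Other spellings of the E2F site were not searched, so a promoter without a word, such as that of Chaf1a, may still hold a site.

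Reads per library ranged from 18.5 to 26.9 M. Levels are given as the authors' scaled counts (CPM, the usual name for reads scaled to library size), which are not divided by gene length and are compared only within a gene. Differences are log2 changes on the log2(CPM + 1) scale with their standard error (SE), fitted with limma on all 30 libraries, and understate the change of genes near 1 CPM. A gene "rose", "fell", or was called higher or lower, when its Benjamini-Hochberg adjusted p over the 12946 genes tested was below 0.05. All 39 genes passed the filter on low values, and 37 were above 0 in every library. Orc1 was listed at 0 in replicate 1 of 5 µM on day 1 and Chaf1b in replicate 1 of 5 µM on day 4. Of 1170 values, 8 rested on 3 reads or fewer, which is 0.114 to 0.175 CPM.

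A pair of day 1 libraries held transcripts of other cell types. In replicate 1 of 2 µM the 9 adipocyte markers summed to 6331 CPM, 8 of them at 1 CPM or more and Lep at 0, and the 5 fibroblast markers to 959 CPM. In replicate 3 of 5 µM the 6 lung epithelium markers summed to 343 CPM with all 6 at 1 CPM or more, and the 10 immune markers to 309 CPM with 8 at 1 CPM or more. In the other 28 libraries these sums reached at most 2.40 CPM for adipocyte, 0.450 CPM for lung epithelium and 10.9 CPM for immune markers, while the fibroblast sum reached 582 CPM (5 µM, day 4). The 8 myoblast and myotube markers were all at 1 CPM or more in both libraries. Counts of calls in comparisons that use them are therefore given with and without both. Since all groups share 1 spread per gene, both libraries also entered the tests of other days.

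In control cells the replication genes fell on leaving day 0 and stayed low. Against control, 5 µM chromate lowered most of them further on days 2 and 4, while on day 1 about as many passed the test as did not, and at 2 µM fewer passed than did not on each day. Their summed level was 4303 to 4426 CPM on day 0 and 1153 to 1356 CPM in control cells on day 1. It was 1539 to 1639 CPM on day 2 and 1100 to 1151 CPM on day 4. At 5 µM the sum was 722 to 1095 CPM on day 1 (722 to 739 CPM without the library with lung and immune transcripts), 768 to 843 CPM on day 2 and 727 to 781 CPM on day 4. At 2 µM it was 744 to 828, 1216 to 1303 and 824 to 860 CPM on the same days, with 796 to 828 CPM on day 1 without the library with adipocyte transcripts. Treated and control libraries did not overlap on any of the 3 days at either dose. In bulk RNA, fewer cells passing through S phase and less of these transcripts per cell cannot be told apart.

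**Figure D1:**
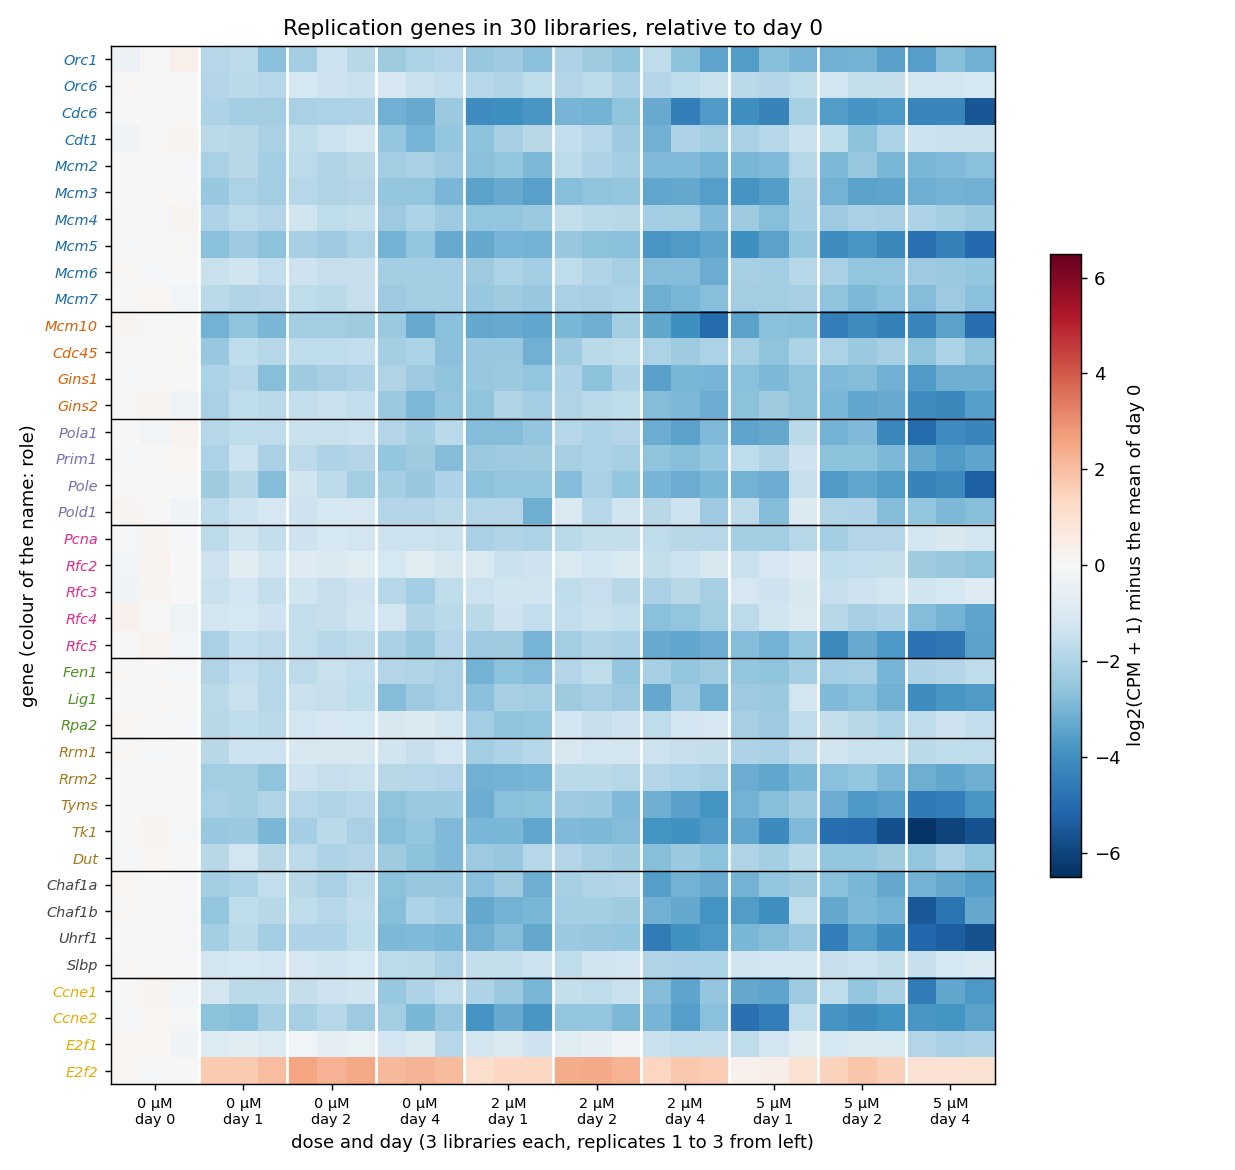
Each row is 1 of the 39 genes, grouped by role, and each column 1 of the 30 libraries. Colour gives log2(CPM + 1) minus the mean of the 3 day 0 libraries, so 38 rows are blue after day 0 and the bottom row, E2f2, is red.

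Markers of the muscle lineage moved with dose as well. The sum of the 8 myoblast and myotube markers was 14518 to 15946 CPM in control cells on day 4 and 5011 to 5916 CPM at 5 µM. At 5 µM 7 of the 8, Myog among them, were lower than control on each day and Myf5 was higher. The sum of the 5 fibroblast markers was 124 to 133 CPM in control cells on day 4 and 564 to 582 CPM at 5 µM. Only Dcn was higher, with 114, 122 and 121 CPM in control and 559, 575 and 562 CPM at 5 µM. Pdgfra was at 9.60, 9.47 and 6.64 CPM in control and 4.75, 6.42 and 7.06 CPM at 5 µM. Lum was at 0.0502, 0.659 and 1.67 CPM and 0.188, 0 and 0 CPM. Dpt was at 0.402, 1.47 and 1.21 CPM and 0, 0.531 and 0.350 CPM, and Thy1 was at 0 in both. The part of these changes in the replication genes was not tested.

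The 15 mitosis markers, such as Top2a and Ccnb1, moved with these genes over the control course but not at every dose and day. Their sum was 2311 to 2397 CPM on day 0 and 333 to 346 CPM in control cells on day 4. At 5 µM it was 430.0 to 721 CPM on day 1, overlapping the 446 to 601 CPM of the control, and 83.9 to 93.7 CPM on day 2 and 39.2 to 42.5 CPM on day 4. As a share of day 0, the replication genes at 5 µM stood at 19.6%, 18.8% and 17.5% on days 1, 2 and 4. The mitosis markers stood at 23.2%, 3.80% and 1.76%. Without replicate 3 of day 1, the library with lung and immune transcripts, the day 1 shares were 16.8% and 19.4%. From day 1 to day 2 at 5 µM the share of the mitosis markers thus dropped with or without that library, while that of the replication genes went slightly down with it and slightly up without it. Sums weigh the abundant genes most. With all libraries, the median log2 change of the 39 genes against day 0 was -2.45, -2.74 and -3.13 at 5 µM on days 1, 2 and 4. No test was made on these sums.

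**Figure D2:**
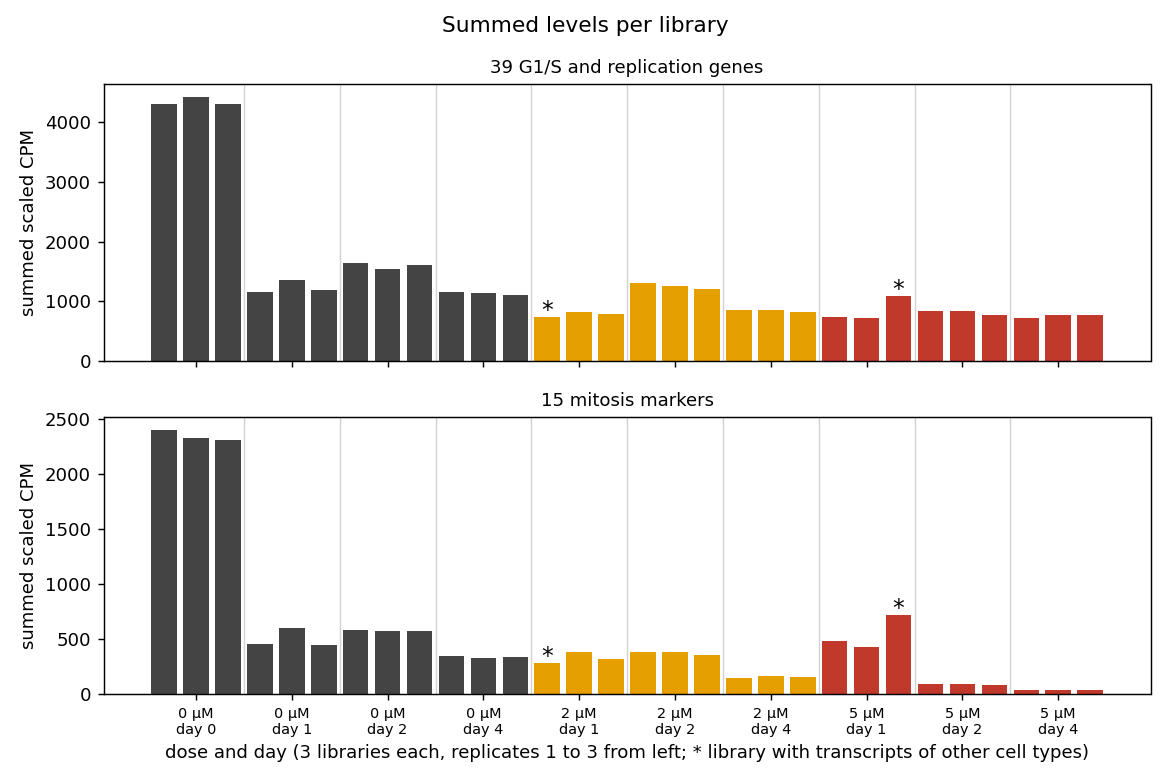
Bars show summed scaled CPM per library, for the 39 replication genes above and for 15 mitosis markers below, coloured by dose (grey 0, orange 2, red 5 µM). Asterisks mark the day 1 libraries with transcripts of other cell types, and on days 2 and 4 the mitosis bars at 5 µM are below all others.

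In control cells 38 of the 39 genes fell from day 0 to day 1, with a median change of -1.85, and E2f2 alone rose. Across all genes tested, 22.7% were lower and 25.4% higher in this comparison. All 39 calls held when each library was left out in turn. Mcm10, which brings the helicase to life, fell most, from 36.5, 29.8 and 32.0 CPM to 3.05, 4.55 and 3.28 CPM, by 2.88 ± 0.35 (adjusted p = 1.5e-08). Thymidine kinase Tk1 changed by -2.62 ± 0.25 (adjusted p = 1.3e-10) and the helicase subunit Mcm5 by -2.58 ± 0.23 (adjusted p = 2.9e-11). The smallest fall was that of E2f1, the activator that drives many of the others, from 37.0, 37.0 and 28.7 CPM to 17.9, 20.9 and 17.7 CPM, by 0.82 ± 0.21 (adjusted p = 0.0017).

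Among the other leading genes, licensing factor Cdc6 changed by -2.16 ± 0.38 (adjusted p = 1.2e-05), Mcm2 by -2.05, Cdc45 by -1.99 and the polymerase alpha subunit Pola1 by -1.73. The clamp Pcna changed by -1.51, DNA ligase Lig1 by -1.68, the reductase subunit Rrm2 by -2.36 and Uhrf1 by -2.07. The histone mRNA binding protein Slbp changed by -1.20 and cyclin E1 (Ccne1) by -1.57. All of these passed, and the highest adjusted p among them was 7.1e-05 (Ccne1).

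E2f2, an activating E2F like E2f1, went the other way. Its level was 20.4, 17.2 and 19.3 CPM on day 0, 63.6, 63.5 and 79.9 CPM on day 1, 116, 93.1 and 112 CPM on day 2 and 85.7, 91.8 and 81.1 CPM on day 4. It rose by 1.80 ± 0.14 (adjusted p = 5.9e-13) on day 1 and by a further 0.63 ± 0.14 (adjusted p = 8.2e-04) on day 2. Every library of days 1, 2 and 4, at all doses, stood above every library of day 0. E2f1 and E2f2 thus moved in opposite directions from day 0 to day 1 in the same control libraries. Relative to day 0, control E2f1 stood at -0.82, -0.41 and -1.34 on days 1, 2 and 4. E2f2 stood at 1.80, 2.43 and 2.13, so after day 1 both went up and then down.

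From day 1 to day 2 in control cells 5 of the 39 genes rose and none was called lower, with a median of 0.27. The 5 make up 12.8% of the 39, the same share as among all genes, of which 12.8% were higher and 9.42% lower. The 5 were E2f2, both reductase subunits Rrm1 and Rrm2, Orc6 and Rpa2, a subunit of the single-strand binding protein. Rrm2 was at 138, 139 and 106 CPM on day 1 and 261, 232 and 243 CPM on day 2, a rise of 0.95 ± 0.11 (adjusted p = 1.4e-08). The Orc6 call was lost without replicate 1 of day 2 (adjusted p = 0.0593). The Rpa2 call (0.56, adjusted p = 0.020) was lost without replicates 1 or 3 of day 1 or replicates 2 or 3 of day 2 (adjusted p = 0.0504 to 0.0705).

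From day 2 to day 4 in control cells 20 of the 39 genes fell and none was called higher, with a median of -0.61. Of all genes, 14.1% were lower and 11.7% higher. Cdt1, the licensing factor that loads the helicase, fell most, from 10.1, 12.2 and 14.1 CPM to 4.97, 3.24 and 5.11 CPM, by 1.28 ± 0.28 (adjusted p = 6.4e-04). Gins2 changed by -1.10 ± 0.23 (adjusted p = 3.8e-04) and Uhrf1, which guides maintenance methylation, by -1.04 ± 0.21 (adjusted p = 2.0e-04). All 5 genes of nucleotide supply fell, by 0.28 (Rrm1) to 0.75 (Dut). Of the 20 calls, 10 held with each library left out in turn, and the count was 13 without replicate 1 or replicate 3 of day 2 and 12 without replicate 1 of day 4. In the direction with no call, in this comparison and the one before, limma gave no gene an unadjusted p below 0.05 and neither edgeR nor DESeq2 called any. The same holds for each direction named below as having no call, with all libraries in the fit, unless other values are given.

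Against control, 5 µM chromate lowered 19 of the 39 genes on day 1, 32 on day 2 and 28 on day 4. None was called higher on days 1 and 2, and 3 were higher on day 4. Over all genes, 9.41% were lower and 4.29% higher on day 1, 13.4% lower and 10.2% higher on day 2, and 28.6% lower and 27.3% higher on day 4. The median change of the 39 genes was -0.57, -0.97 and -1.04 on these days. Treated and control libraries did not overlap for 13 of the 19 genes called lower on day 1, all 32 on day 2 and all 28 on day 4. Of all genes tested, 8.90%, 13.3% and 26.5% were called lower without overlap, which is 94.6%, 98.8% and 92.9% of those called lower. Genes lower on all 3 days numbered 13, namely Orc1, Cdc6, Mcm5, Gins2, Pola1, Rfc5, Rrm1, Rrm2, Tyms, Tk1, Chaf1a, Uhrf1 and E2f2. With 1 library left out the 13 became 4 to 15, with 4 to 6 when replicate 2 or 3 of the day 1 control or replicate 1 or 2 of 5 µM on day 1 was left out, and only Rrm2 and E2f2 kept all 3 calls each time. Without the day 1 pair 16 were lower on all 3 days, and Orc1 and Gins2 were not among them. Lower on no day were 5 genes, Orc6, Cdt1, Cdc45, Rfc3 and Slbp. For these counts over 3 days the share among all genes was not computed.

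**Figure D3:**
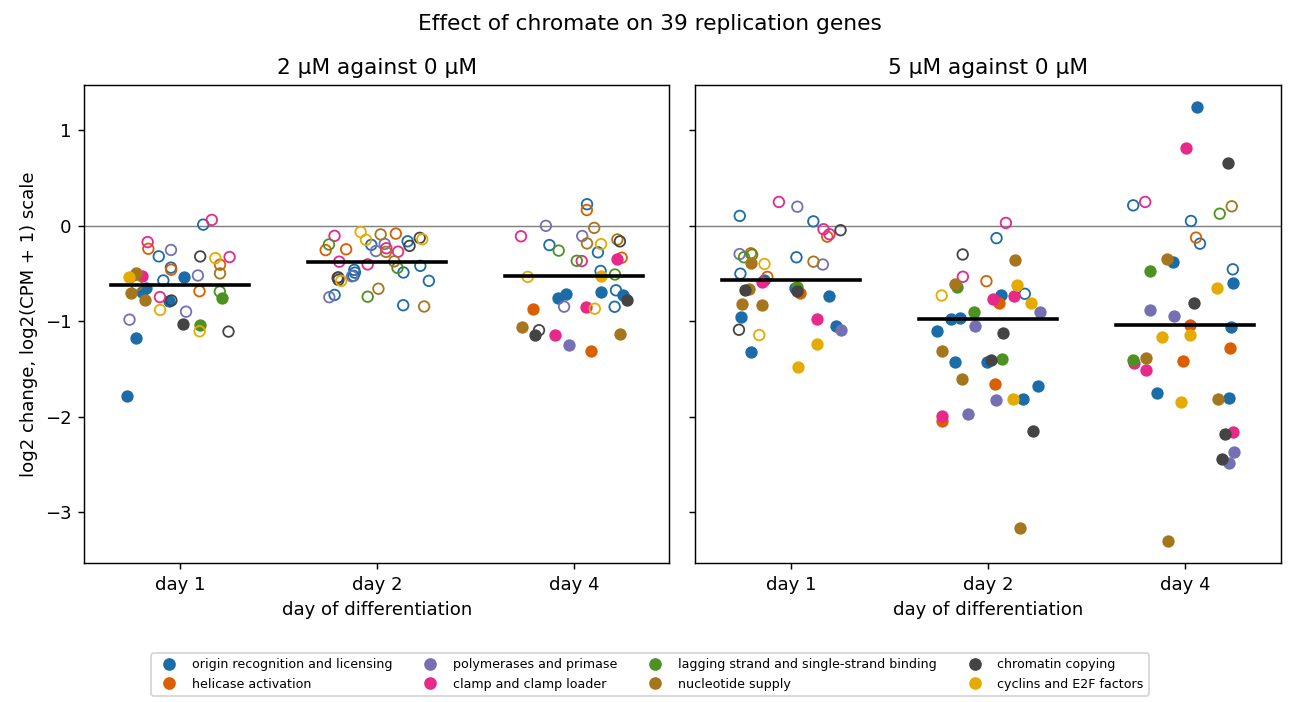
Each point is the log2 change of 1 gene against 0 µM on the same day, at 2 µM (left) and 5 µM (right), coloured by role. Filled points passed the test, open points did not, and black bars are medians (-0.57, -0.97 and -1.04 at 5 µM). On day 4 at 5 µM the points spread from -3.31 (Tk1) to 1.25 (Cdt1).

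The 10 genes of origin recognition and licensing split by day 4. On day 2, 8 of the 10 were lower, with Orc6 and Cdt1 not called. On day 4, 5 were lower, Cdt1 was higher, and Orc6, Mcm3, Mcm4 and Mcm6 were not called. Mcm5, a subunit of the MCM ring, was at 41.9, 36.9 and 45.5 CPM in control and 10.8, 13.0 and 9.65 CPM at 5 µM on day 2, and at 21.8, 32.3 and 19.0 CPM and 5.65, 8.35 and 4.73 CPM on day 4. It changed by -1.81 ± 0.23 (adjusted p = 2.4e-07) and -1.80 ± 0.23 (adjusted p = 5.7e-08). Mcm6, a subunit of the same ring, was at 103, 90.1 and 91.8 CPM in control and 59.4, 42.6 and 43.1 CPM at 5 µM on day 2, a change of -0.97 ± 0.13 (adjusted p = 8.7e-07). On day 4 Mcm6 stood at 55.2, 54.7 and 52.5 CPM and 49.8, 48.2 and 44.4 CPM, a difference of -0.19 ± 0.13 (adjusted p = 0.24). Treated libraries were thus all below control for both subunits on both days, and only Mcm5 passed on day 4. The difference between the subunits was not tested.

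Mcm2, Mcm3, Mcm4 and Mcm7 complete the ring. Mcm2 was at 36.6, 41.6 and 35.1 CPM in control and 22.5, 24.3 and 27.3 CPM at 5 µM on day 4, a change of -0.59 ± 0.18 (adjusted p = 0.0065) after -0.97 ± 0.18 (adjusted p = 1.2e-04) on day 2. Mcm7 changed by -1.10 on day 2 and -0.38 on day 4, and the day 4 call was lost without replicate 1 of 5 µM (adjusted p = 0.0746). Mcm3 and Mcm4 changed by -1.43 and -0.73 on day 2 and differed by -0.46 ± 0.23 (adjusted p = 0.094) and 0.05 ± 0.15 (adjusted p = 0.80) on day 4. Mcm3 passed on day 4 without replicate 3 of the control (adjusted p = 0.0437), and also without the pair of day 1 libraries (adjusted p = 0.00709). Cdc6, which loads the ring, was at 4.77, 4.15 and 8.31 CPM in control and 1.55, 1.69 and 0.0584 CPM at 5 µM on day 4, the last library resting on 1 read. Its changes were -1.68 ± 0.38 (adjusted p = 9.1e-04) and -1.75 ± 0.38 (adjusted p = 1.7e-04). Orc1, a low gene of the origin recognition complex, was at 1.51, 1.98 and 2.41 CPM and 0.0471, 0.821 and 0.467 CPM on day 4 and fell by 1.06 ± 0.36 (adjusted p = 0.012), a call lost without replicate 1 of 5 µM (adjusted p = 0.0743).

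Cdt1 was the exception among licensing genes. On day 2 it was at 10.1, 12.2 and 14.1 CPM in control and 9.85, 4.48 and 7.41 CPM at 5 µM, a difference of -0.71 ± 0.28 (adjusted p = 0.061). On day 4 it was at 4.97, 3.24 and 5.11 CPM in control and 11.9, 11.6 and 11.8 CPM at 5 µM, a rise of 1.25 ± 0.28 (adjusted p = 2.7e-04). Between these days it fell by 1.28 in control and rose by 0.69 at 5 µM (adjusted p = 0.047). Without replicate 1 of 5 µM the day 2 difference was -0.94 (adjusted p = 0.0271), and it also passed without the day 1 pair (adjusted p = 0.0442).

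**Figure D4:**
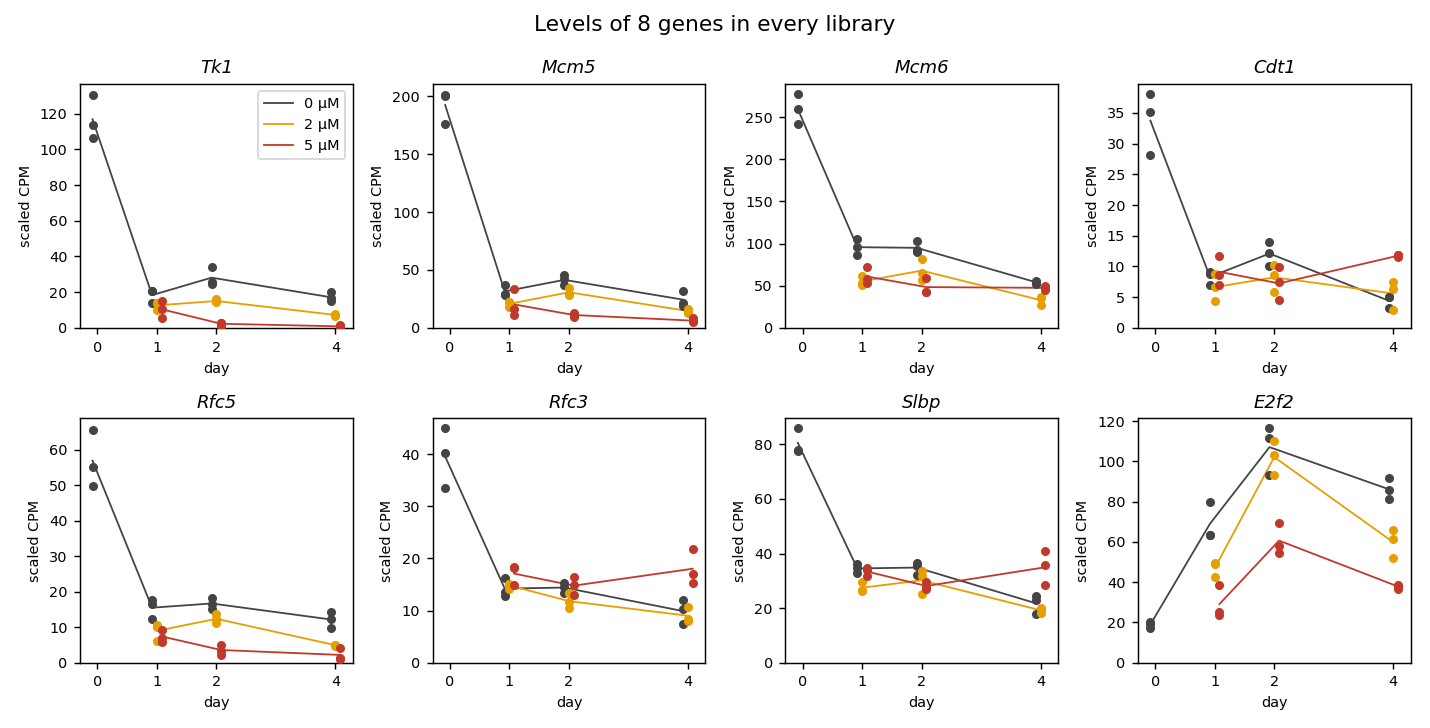
Points are single libraries and lines join group means of scaled CPM by day, for 0 µM (grey), 2 µM (orange) and 5 µM (red). Tk1, Mcm5 and Rfc5 at 5 µM lie below control on days 2 and 4, Cdt1, Rfc3 and Slbp stand above it on day 4, and E2f2 rises in control after day 0.

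Among the 4 genes that activate the helicase, 3 were lower on days 2 and 4. Mcm10 was at 6.04, 6.13 and 5.81 CPM in control and 0.525, 0.960 and 0.617 CPM at 5 µM on day 2, a change of -2.05 ± 0.35 (adjusted p = 2.4e-05), and fell by 1.41 ± 0.35 (adjusted p = 7.8e-04) on day 4. The GINS subunits Gins1 and Gins2 changed by -0.80 and -1.66 on day 2 and by -1.04 and -1.28 on day 4. The Gins1 call on day 2 was lost without replicates 2 or 3 of the control or replicates 1 or 3 of 5 µM (adjusted p = 0.0525 to 0.10). Cdc45, their partner in the helicase, was at 12.9, 12.9 and 13.5 CPM and 9.41, 7.24 and 8.77 CPM on day 2, a difference of -0.58 ± 0.24 (adjusted p = 0.083). On day 4 it was at 8.44, 9.73 and 5.80 CPM and 6.17, 9.51 and 6.07 CPM, a difference of -0.12 ± 0.24 (adjusted p = 0.69) with overlapping libraries.

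All 4 genes of the polymerases and primase were lower on days 2 and 4. Pola1, the catalytic subunit of polymerase alpha, was at 29.9, 30.4 and 31.3 CPM in control and 8.97, 10.4 and 3.57 CPM at 5 µM on day 2. On day 4 the values were 21.7, 17.3 and 24.5 CPM and 1.65, 4.06 and 3.50 CPM. The changes were -1.97 ± 0.31 (adjusted p = 7.4e-06) and -2.48 ± 0.31 (adjusted p = 2.4e-08), so every control library stood above every treated one. The leading-strand polymerase Pole changed by -1.83 ± 0.33 (adjusted p = 7.7e-05) and -2.38 ± 0.33 (adjusted p = 2.7e-07), the primase subunit Prim1 by -0.91 and -0.94, and the polymerase delta subunit Pold1 by -1.05 and -0.88. Pold1 was lost on day 2 without replicates 2 or 3 of the control or replicate 3 of 5 µM (adjusted p = 0.0663 to 0.16). On day 4 it was lost on leaving out any of the compared libraries except replicate 1 of 5 µM (adjusted p = 0.0507 to 0.0880). With no filter on low values neither call passed (adjusted p = 0.0683 and 0.0721).

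The clamp loader genes moved apart at 5 µM. Rfc5 was at 12.4, 9.83 and 14.3 CPM in control and 1.08, 1.30 and 4.14 CPM at 5 µM on day 4, a change of -2.16 ± 0.27 (adjusted p = 2.8e-08). Rfc4 was at 15.1, 8.81 and 10.7 CPM and 4.57, 3.57 and 2.63 CPM, a change of -1.44 ± 0.22 (adjusted p = 1.2e-06), and Rfc2 at 22.7, 31.4 and 24.0 CPM and 9.42, 8.50 and 7.41 CPM, a change of -1.51 ± 0.18 (adjusted p = 9.3e-09). Rfc3 was at 10.2, 7.50 and 11.9 CPM and 15.3, 17.1 and 21.7 CPM, a rise of 0.81 ± 0.18 (adjusted p = 2.9e-04). These 4 proteins are subunits of 1 complex, and on day 4 the treated libraries lay below control for Rfc2, Rfc4 and Rfc5 and above it for Rfc3. On day 2 Rfc5 and Rfc2 had changed by -2.00 and -0.74, Rfc4 differed by -0.53 ± 0.22 (adjusted p = 0.078) and Rfc3 by 0.03 ± 0.18 (adjusted p = 0.94).

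Pcna, the sliding clamp itself, was at 104, 120.5 and 118 CPM in control and 58.1, 71.8 and 70.2 CPM at 5 µM on day 2, a change of -0.77 ± 0.11 (adjusted p = 1.9e-06). On day 4 it was at 102, 103 and 97.4 CPM and 112, 131 and 118 CPM, a difference of 0.25 ± 0.11 (adjusted p = 0.056) although the libraries did not overlap. It passed without replicate 1 of 5 µM (adjusted p = 0.0450) and without the day 1 pair (adjusted p = 0.0373). A pseudogene copy, Pcna-ps2, has its own entry in the table, and how the authors divided reads between the copies is not given in the sources used here. Pcna-ps2 was at 111, 85.3 and 110.5 CPM on day 0, at 36.1, 26.8 and 28.6 CPM in control on day 4 and at 34.8, 43.7 and 49.3 CPM at 5 µM on day 4. The split between the copies is uncertain, and so are the Pcna values.

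Of the 3 genes for the lagging strand and single-strand binding, Lig1 fell most. It was at 10.1, 14.4 and 17.5 CPM in control and 3.77, 4.83 and 5.20 CPM at 5 µM on day 4, a change of -1.40 ± 0.25 (adjusted p = 1.4e-05) after -1.39 ± 0.25 (adjusted p = 5.7e-05) on day 2. The flap nuclease Fen1 fell by 0.90 ± 0.20 (adjusted p = 8.1e-04) on day 2 and differed by 0.13 ± 0.20 (adjusted p = 0.61) on day 4. Rpa2 changed by -0.64 ± 0.18 (adjusted p = 0.0076) and -0.47 ± 0.18 (adjusted p = 0.026). The Rpa2 call was lost on day 2 without replicate 3 of 5 µM (adjusted p = 0.0629), and on day 4 without replicates 1 or 2 of the control or replicates 1 or 3 of 5 µM (adjusted p = 0.0651 to 0.0894).

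Nucleotide supply held the gene with the largest change. Tk1, which salvages thymidine, was at 20.7, 20.7 and 13.7 CPM in control and 10.3, 5.69 and 15.3 CPM at 5 µM on day 1. On day 2 the values were 24.6, 34.1 and 25.8 CPM and 2.98, 2.68 and 1.28 CPM, and on day 4 16.5, 19.9 and 15.1 CPM and 0.424, 0.821 and 1.34 CPM. Tk1 changed by -0.83 ± 0.25 (adjusted p = 0.025), -3.16 ± 0.25 (adjusted p = 8.7e-12) and -3.31 ± 0.25 (adjusted p = 4.7e-13). Tyms, which makes thymidylate anew, changed by -1.61 and -1.81 on days 2 and 4. Rrm2 was at 189.7, 178 and 171 CPM in control and 71.1, 61.5 and 72.9 CPM at 5 µM on day 4, a change of -1.38 ± 0.11 (adjusted p = 5.3e-13). Its partner Rrm1 was at 159, 139 and 166 CPM and 114, 124 and 125 CPM, a change of -0.34 ± 0.11 (adjusted p = 0.0058), so both subunits were below control with a smaller change in Rrm1. Dut, which removes dUTP, fell by 0.61 ± 0.19 (adjusted p = 0.014) on day 2, a call lost without replicate 1 of the control (adjusted p = 0.0808) or of 5 µM (adjusted p = 0.0629), and differed by 0.20 ± 0.19 (adjusted p = 0.37) on day 4.

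Genes for copying chromatin were lower except Slbp. Uhrf1 was at 20.8, 22.2 and 20.2 CPM in control and 3.95, 3.09 and 2.28 CPM at 5 µM on day 4. It changed by -2.15 ± 0.21 (adjusted p = 4.5e-10) on day 2 and -2.44 ± 0.21 (adjusted p = 4.1e-12) on day 4. The CAF-1 subunits Chaf1a and Chaf1b changed by -1.13 and -1.41 on day 2 and by -0.81 and -2.18 on day 4. The Chaf1b call on day 2 was lost without replicate 1 of 5 µM (adjusted p = 0.0531) and with DESeq2 (adjusted p = 0.0970). Slbp was at 36.7, 32.3 and 35.6 CPM in control and 27.8, 29.6 and 26.8 CPM at 5 µM on day 2, a difference of -0.30 ± 0.13 (adjusted p = 0.11). On day 4 it was at 24.3, 23.0 and 18.0 CPM and 28.3, 35.9 and 40.7 CPM, a rise of 0.66 ± 0.13 (adjusted p = 8.9e-05) with all treated libraries above control. As with Cdt1 and Rfc3, the control level fell from day 2 to day 4, here by 0.66 ± 0.13 (adjusted p = 2.5e-04).

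Of the cyclins and E2F factors, 3 were lower on day 2 and all 4 on day 4. Ccne1, the cyclin that starts S phase, was at 12.1, 14.2 and 14.3 CPM and 11.2, 5.36 and 7.58 CPM on day 2, a difference of -0.73 ± 0.31 (adjusted p = 0.086), which passed without replicate 1 of 5 µM (-0.97, adjusted p = 0.0416). On day 4 it was at 5.98, 8.51 and 11.0 CPM and 0.659, 2.61 and 1.87 CPM, a change of -1.84 ± 0.31 (adjusted p = 5.3e-06). Its relative Ccne2 changed by -1.81 ± 0.42 (adjusted p = 0.0013) and -1.14 ± 0.42 (adjusted p = 0.021). E2f1 changed by -0.62 ± 0.21 (adjusted p = 0.033) and -0.65 ± 0.21 (adjusted p = 0.0099). E2f2 was at 85.7, 91.8 and 81.1 CPM and 36.8, 37.9 and 38.8 CPM on day 4 and fell by 1.17 ± 0.14 (adjusted p = 1.1e-08). E2f2 thus rose in control cells from day 0 to day 1 and was lower at 5 µM, the only one of the 39 genes with this combination. Rrm1, Rrm2 and Rpa2 rose in control only from day 1 to day 2 and were also lower at 5 µM on days 2 and 4. The E2f1 call was lost on day 2 on leaving out any compared library except replicate 2 of the control (adjusted p = 0.0523 to 0.16) and on day 4 without replicate 2 of the control (adjusted p = 0.10). With no filter on low values the E2f1 call on day 2 was lost too (adjusted p = 0.0550). The Ccne2 call on day 4 was lost without replicates 1 or 3 of the control or replicates 1 or 2 of 5 µM (adjusted p = 0.0515 to 0.0813) and with no filter on low values (adjusted p = 0.0667).

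On day 1 the effect of 5 µM rested partly on which libraries were used. E2f2 was at 63.6, 63.5 and 79.9 CPM in control and 23.5, 25.2 and 38.6 CPM at 5 µM, a change of -1.24 ± 0.14 (adjusted p = 3.0e-08). Rrm2 was at 138, 139 and 106 CPM and 68.3, 62.4 and 84.1 CPM, a change of -0.82 ± 0.11 (adjusted p = 5.2e-07). Ccne1 was at 15.4, 10.4 and 10.4 CPM and 2.77, 2.58 and 6.30 CPM and changed most, by -1.48 ± 0.31 (adjusted p = 8.3e-04). Cdc6 changed by -1.33, Pola1 by -1.09, Mcm5 by -0.74, Uhrf1 by -0.68 and Pcna by -0.59. Mcm2 (-0.50), Cdc45 (-0.29), Lig1 (-0.30), Slbp (-0.05) and E2f1 (-0.40) did not pass. The calls of Cdc6, Mcm5 and Pola1 were not made by edgeR (adjusted p = 0.15, 0.0850 and 0.0665) or DESeq2. Of the 19 calls, 5 held with each library left out in turn. The count was 8 and 11 without replicates 2 and 3 of the control, and 9 and 8 without replicates 1 and 2 of 5 µM.

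Replicate 3 of 5 µM, the library with lung and immune transcripts, also had higher levels of these genes. In it 36 of the 39 genes were above both other libraries of the group, and 10 by more than 2-fold on the log2(CPM + 1) scale. Ccne2 was at 1.88, 2.66 and 24.8 CPM, Chaf1b at 2.64, 1.88 and 13.4 CPM, Mcm3 at 12.4, 14.5 and 42.4 CPM, Pola1 at 6.91, 7.49 and 24.4 CPM and Cdc6 at 2.22, 1.51 and 10.3 CPM, the third value in each case being this library. Mki67, a marker of dividing cells, was at 8.36, 7.77 and 91.8 CPM. In the 28 libraries other than the pair, at most 28 of the 39 genes were above both others of their group. At most 2 genes there stood more than 2-fold above the rest of their group. Whether the other cell types supplied these reads was not tested.

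With both of these libraries left out, 21 genes were lower at 5 µM on day 1 and none higher, with a median of -0.74, against 8.79% lower and 4.27% higher of all genes. Mcm3 then changed by -1.49 ± 0.16 (adjusted p = 1.0e-08), Ccne2 by -2.14 ± 0.27 (adjusted p = 2.0e-07), Cdc6 by -1.99 ± 0.34 (adjusted p = 4.6e-05), Chaf1b by -1.81 ± 0.37 (adjusted p = 6.1e-04) and Pola1 by -1.64 ± 0.28 (adjusted p = 4.4e-05). Mcm2 and Lig1 passed as well, with -0.85 ± 0.16 (adjusted p = 1.9e-04) and -0.71 ± 0.23 (adjusted p = 0.036). Orc1 and Gins2 no longer passed (adjusted p = 0.059 and 0.086). With 2 libraries at 5 µM left, this fit takes their spread from the other groups.

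At 2 µM most estimates lay below control, and 14, 0 and 15 genes passed on days 1, 2 and 4. On day 1 14 were lower and none higher, with a median of -0.62, against 1.48% lower and 0.518% higher of all genes. When the same libraries were left out, 9 were lower and none higher, against 0.672% and 0.216%, and Mcm4, Mcm7, Rrm1, Tyms and E2f2 no longer passed. Cdc6 was at 11.5, 9.79 and 9.67 CPM in control and 2.02, 2.17 and 2.65 CPM at 2 µM, a change of -1.79 ± 0.38 (adjusted p = 0.0061). Mcm3 changed by -1.18 ± 0.23 (adjusted p = 0.0031), Fen1 by -1.04 ± 0.20 (adjusted p = 0.0025), Uhrf1 by -1.03 ± 0.21 (adjusted p = 0.0035) and Rrm2 by -0.70 ± 0.11 (adjusted p = 1.7e-04). In the fit without the pair the changes were -1.73 for Cdc6, -1.15 for Mcm3, -0.94 for Fen1, -1.01 for Uhrf1 and -0.68 for Rrm2, and all 5 still passed. Mcm2 (-0.69) and Pcna (-0.52) passed too, and both were lost with a library left out. Mcm5 (-0.57), Cdc45 (-0.69), Pola1 (-0.98), Lig1 (-0.69), Slbp (-0.32), Ccne1 (-0.88) and E2f1 (-0.34) did not pass. Of the 14 calls 6 held with each library left out, and the count was 8 without replicate 2 or replicate 3 of the control and 7 without replicate 1 of 2 µM.

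On day 2 limma called no gene at 2 µM in either direction, although all 39 estimates were below 0, with a median of -0.38. Over all genes 0.247% were lower and 0.263% higher. At an unadjusted p below 0.05, 13 genes were lower and none higher. edgeR called none and DESeq2 called 5 lower and none higher. Tk1 had the lowest estimate, with 24.6, 34.1 and 25.8 CPM in control and 14.8, 14.5 and 15.9 CPM at 2 µM, a difference of -0.85 ± 0.25 (adjusted p = 0.15). The leading genes lay between -0.83 (Cdc6) and -0.14 (E2f1). Cdc6 had adjusted p = 0.51, Mcm2 0.94, Mcm5 0.70, Pola1 0.73, Pcna 0.14, Lig1 0.25, Rrm2 0.11 and Uhrf1 0.32. Orc6 and Mcm3 passed on day 2 when the pair of day 1 libraries was left out of the fit.

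On day 4 15 genes were lower at 2 µM and none higher, with a median of -0.53, against 3.74% lower and 5.11% higher of all genes. Mcm10 was at 5.28, 2.48 and 4.13 CPM in control and 2.29, 1.10 and 0.0473 CPM at 2 µM, a change of -1.32 ± 0.35 (adjusted p = 0.012). Its last value rests on 1 read, and the call was lost without that library (adjusted p = 0.14) or replicate 1 of the control (adjusted p = 0.0783) and with edgeR (adjusted p = 0.0681). Pola1 was at 7.94, 6.53 and 10.6 CPM at 2 µM and changed by -1.25 ± 0.31 (adjusted p = 0.0071), and Uhrf1 was at 6.24, 9.88 and 11.5 CPM and changed by -1.15 ± 0.21 (adjusted p = 2.3e-04). Tk1 changed by -1.14 ± 0.25 (adjusted p = 0.0028), Tyms by -1.06 ± 0.21 (adjusted p = 9.6e-04) and Rfc5 by -1.14 ± 0.27 (adjusted p = 0.0052). Mcm2 changed by -0.69 and Pcna by -0.35. Mcm5 (-0.68), Cdc6 (-0.85), Ccne1 (-0.87), Lig1 (-0.51), Rrm2 (-0.18), E2f1 (-0.19), Slbp (-0.16) and Cdc45 (0.17) did not pass. Of the 15 calls 7 held with each library left out, and the count was 9 without replicate 2 of the control or replicate 3 of 2 µM. Both doses share the control libraries, so values side by side are not independent of each other.

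The doses were also compared directly. On day 1 the median difference of the 39 genes between 5 and 2 µM was 0.12, with 1 gene lower and 1 higher, against 4.25% lower and 1.29% higher of all genes. E2f2 was at 42.3, 49.2 and 49.3 CPM at 2 µM and 23.5, 25.2 and 38.6 CPM at 5 µM, a difference of -0.70 ± 0.14 (adjusted p = 0.0013). Prim1 was at 11.4, 11.9 and 12.2 CPM and 20.1, 16.1 and 25.3 CPM, a difference of 0.72 ± 0.20 (adjusted p = 0.023), and the call was lost without replicate 1 of 2 µM or without replicate 1 or 3 of 5 µM. After leaving out the pair, 2 were lower (E2f2 and Ccne2) and none higher, against 2.67% and 0.456% of all genes, with a median of -0.15 over 2 libraries in each group. At an unadjusted p below 0.05, 1 gene was then higher.

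On day 2 20 genes were lower at 5 than at 2 µM and 1 was higher, with a median of -0.71, against 8.13% lower and 4.64% higher of all genes. Tk1 was at 14.8, 14.5 and 15.9 CPM at 2 µM and 2.98, 2.68 and 1.28 CPM at 5 µM, a difference of -2.32 ± 0.25 (adjusted p = 2.5e-08). Rfc5 differed by -1.59 ± 0.27 (adjusted p = 5.7e-05) and Uhrf1 by -1.58 ± 0.21 (adjusted p = 6.4e-07). Orc6 was higher at 5 µM, with 22.8, 26.0 and 19.5 CPM and 36.6, 28.8 and 28.7 CPM, a difference of 0.45 ± 0.14 (adjusted p = 0.034), and was not called without replicate 1 or 3 of 2 µM or replicate 1 of 5 µM. Of the 20 lower calls 13 held with each library left out.

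On day 4 18 genes (46.2%) were lower and 8 (20.5%) higher at 5 than at 2 µM, with a median of -0.59. Of all genes, 24.8% were lower and 22.8% higher, so the share of higher genes was near that of all genes. The largest differences downward were -2.17 ± 0.25 (adjusted p = 1.2e-08) for Tk1, -1.53 ± 0.33 (adjusted p = 2.9e-04) for Pole and -1.30 ± 0.21 (adjusted p = 3.0e-06) for Uhrf1. The 8 higher genes were Orc6, Cdt1, Mcm6, Mcm7, Pcna, Rfc3, Fen1 and Slbp. Cdt1 differed by 1.02 ± 0.28 (adjusted p = 0.0027), Rfc3 by 0.92 ± 0.18 (adjusted p = 7.9e-05), Slbp by 0.82 ± 0.13 (adjusted p = 5.0e-06), Pcna by 0.60 ± 0.11 (adjusted p = 3.5e-05) and Mcm6 by 0.53 ± 0.13 (adjusted p = 0.0015). Mcm6 was at 35.6, 36.4 and 26.7 CPM at 2 µM and 49.8, 48.2 and 44.4 CPM at 5 µM on day 4, so the lower dose had the lower level. Calls lost with a library left out were 6 of the 18 (Cdc6, Pold1, Rfc4, Lig1, Chaf1b and Ccne1) and 2 of the 8 (Mcm7 and Fen1).

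The days were also compared within each dose, and the difference between the courses at 2 and 5 µM was not tested. At 2 µM 15 genes rose from day 1 to day 2 and none was called lower, with a median of 0.52, against 12.7% higher and 8.96% lower of all genes. In the fit without the day 1 pair 16 rose, against 11.3% higher and 7.70% lower of all genes. Rrm2 went from 74.9, 77.3 and 80.2 CPM to 195, 195 and 178 CPM, a rise of 1.28 ± 0.11 (adjusted p = 1.5e-11), Rpa2 rose by 1.12 ± 0.18 (adjusted p = 1.1e-05) and E2f2 by 1.10 ± 0.14 (adjusted p = 1.5e-07). The count was 9 without replicate 3 of day 1. From day 2 to day 4 25 genes fell at 2 µM and none was called higher, with a median of -0.77, against 13.1% lower and 12.1% higher of all genes. Uhrf1 changed by -1.62 ± 0.21 (adjusted p = 2.4e-07), Ccne1 by -1.37 ± 0.31 (adjusted p = 9.9e-04) and Chaf1a by -1.31 ± 0.23 (adjusted p = 3.9e-05).

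At 5 µM 12 genes (30.8%) fell and 4 (10.3%) rose from day 1 to day 2, with a median of -0.26, against 7.99% lower and 12.9% higher of all genes. Leaving out the day 1 pair, 5 fell (Mcm7, Mcm10, Prim1, Tk1 and Uhrf1) and 5 rose, each 12.8% of the 39, against 6.98% lower and 11.5% higher. The share of rises was near that of all genes in both fits. The count of falls depended on replicate 3 of day 1. Tk1 changed by -1.74 ± 0.25 (adjusted p = 2.5e-06) with it and by -1.43 ± 0.26 (adjusted p = 9.5e-05) without it. Mcm10 changed by -1.32 ± 0.35 (adjusted p = 0.0049) and Uhrf1 by -1.29 ± 0.21 (adjusted p = 1.0e-05). The 4 that rose were E2f2 (1.06), Ccne1 (0.92), Rrm1 (0.52) and Rrm2 (0.46). From day 2 to day 4 at 5 µM 18 genes fell and 3 rose, with a median of -0.39, against 20.3% lower and 21.0% higher of all genes. Ccne1 changed by -1.76 ± 0.31 (adjusted p = 2.1e-05), Chaf1b by -1.43 ± 0.41 (adjusted p = 0.0057) and Uhrf1 by -1.33 ± 0.21 (adjusted p = 2.8e-06). Pcna rose by 0.84 ± 0.11 (adjusted p = 1.8e-07), Cdt1 by 0.69 ± 0.28 (adjusted p = 0.047) and Fen1 by 0.62 ± 0.20 (adjusted p = 0.012). The count of rises was 1 without replicate 3 of day 2 or replicate 3 of day 4.

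The change of the 5 µM effect between days was tested as a difference of differences. From day 1 to day 2 the effect grew more negative for 8 genes and for none more positive by limma (at an unadjusted p below 0.05, 14 and 1, with none more positive by edgeR or DESeq2), against 2.76% and 3.04% of all genes. Tk1 changed by -2.34 ± 0.36 (adjusted p = 2.8e-05), Mcm10 by -1.93 ± 0.49 (adjusted p = 0.011) and Pole by -1.53 ± 0.47 (adjusted p = 0.048). Leaving out the day 1 pair here, 4 of the 39 (10.3%) were more negative (Mcm7, Mcm10, Tk1 and Uhrf1) and E2f2 (2.56%) was more positive, with Tk1 at -2.03 ± 0.35 (adjusted p = 1.6e-04). The shares among all genes were not computed for that fit, so these counts are not set against them. From day 2 to day 4 the effect grew more positive for 10 genes and more negative for 2, against 12.5% and 11.2% of all genes. Cdt1 changed by 1.96 ± 0.39 (adjusted p = 3.2e-04), Fen1 by 1.03 ± 0.28 (adjusted p = 0.0069), Pcna by 1.02 ± 0.16 (adjusted p = 9.0e-06) and Slbp by 0.96 ± 0.19 (adjusted p = 2.7e-04). Rfc4 and Rfc2 changed by -0.91 ± 0.31 (adjusted p = 0.032) and -0.77 ± 0.25 (adjusted p = 0.024). Neither of these last held with every library left out. Rfc2 failed without replicate 2 of control day 2 or day 4 or replicate 3 of 5 µM on day 4, and Rfc4 failed without any of 5 libraries.

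**Figure D5:**
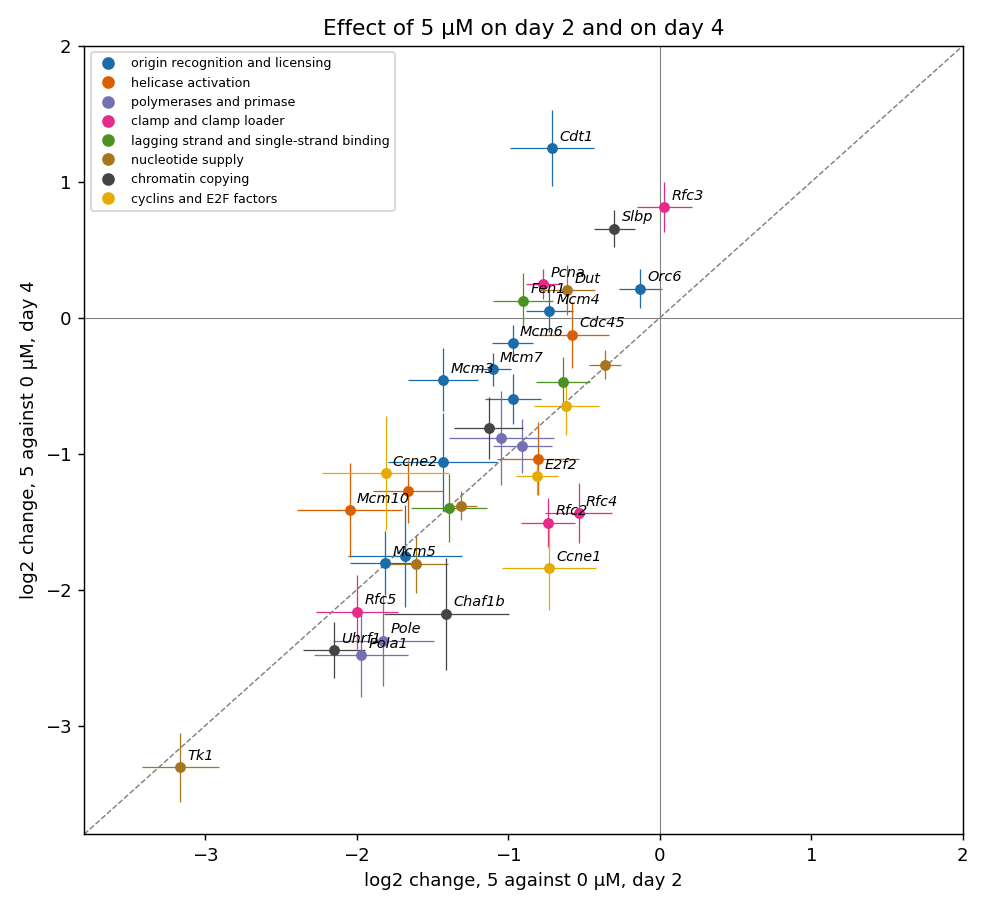
Each point is 1 gene, with its log2 change at 5 against 0 µM on day 2 (x axis) and day 4 (y axis) and bars of 1 SE, coloured by role. Points on the dashed line have the same change on both days. Cdt1, Rfc3 and Slbp lie above 0 on day 4, Pcna, Fen1, Dut and Mcm4 near it, and Tk1 lies at -3.16 and -3.31.

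Across the 10 group means, most of the 39 genes shared 1 profile. The correlation of each gene with the median of the others, on log2(CPM + 1), was highest for Chaf1a (r = 0.989), Gins1 (0.986) and Mcm5 (0.985). It was lowest for E2f2 (-0.303), Rfc3 (0.678) and Orc6 (0.701). These values describe 10 points that share the fall after day 0. An E2F word was present in 9 of 23 genes with a promoter that were lower at 5 µM on day 4 (39.1%) and in 4 of 10 that were not (40.0%), no test being made.

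Some members overlap other genes, and the strand of the libraries is not given in the sources used here. In GENCODE M21, exons of 9 members overlap exons of a gene on the other strand that averaged at least 1 CPM, and for 8 of them the other gene was the more abundant. For 2 more members, Cdc45 with Ufd1 (at most 164 bases) and Lig1 with Zswim9 (at most 247 bases), the other gene was not matched to a value by name and is not counted here. Orc6 shares at most 171 bases with Vps35, which was at 428, 395 and 430.0 CPM in control and 639.7, 636 and 648 CPM at 5 µM on day 4. Rfc4 shares at most 186 bases with Eif4a2, which was at 607, 616 and 531 CPM and 847, 908 and 988 CPM. The others are Mcm7, Gins2, Rfc5, Fen1, Tk1, Chaf1a and Ccne2, with Ap4m1 and Cops6, Gse1, Wsb2, Tmem258, Afmid, Ubxn6 and Ints8. Without strand, reads of such pairs cannot be told apart in the shared bases.

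Replication genes outside the 39 fell with them in control cells. Of 47 other replication genes, 42 fell and 1 rose (Tonsl) from day 0 to day 1. At 5 µM 5 (10.6%), 27 (57.4%) and 23 (48.9%) of the 47 were lower on days 1, 2 and 4, against 9.41%, 13.4% and 28.6% of all genes, with medians of -0.29, -0.70 and -0.49. The share on day 1 was near that of all genes. Without the day 1 pair 9 of the 47 (19.1%) were lower on day 1, against 8.79% of all genes. Dck was higher on day 4. The histone chaperone Asf1b was at 33.8, 37.5 and 40.7 CPM in control and 1.88, 5.48 and 5.33 CPM at 5 µM on day 2, a change of -2.96 ± 0.24 (adjusted p = 8.7e-12). The checkpoint adaptor Clspn changed by -2.00 ± 0.36 (adjusted p = 5.4e-05) and -1.98 ± 0.36 (adjusted p = 1.6e-05) on days 2 and 4. At 2 µM 3 were lower on day 1 (Atad5, Hells and Rpa1) and 5 on day 4, against 1.48% and 3.74% of all genes. Without the pair these became 1 (Atad5, 2.13%), against 0.672% of all genes, and 9 (19.1%). The day 4 share among all genes was not computed for that fit. On day 2 limma and edgeR called none, DESeq2 called 1 lower, and 11 were lower at an unadjusted p below 0.05. Without the pair Asf1b passed on day 2, with a change of -0.93 ± 0.23 (adjusted p = 0.036).

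Of 26 tested regulators of G1/S outside the 39, 6 (23.1%), 16 (61.5%) and 17 (65.4%) were lower at 5 µM on days 1, 2 and 4 and 1, 2 and 3 were higher. Of all genes, 9.41%, 13.4% and 28.6% were lower and 4.29%, 10.2% and 27.3% higher on these days. The shares of regulators that were higher (3.85%, 7.69% and 11.5%) were below those of all genes. Without the day 1 pair 5 (19.2%) were lower and none higher on day 1 (1 higher at an unadjusted p below 0.05), since Cdkn1a and Cdkn1b no longer passed. Of all genes, 8.79% were lower and 4.27% higher in that fit. Cyclin A2 (Ccna2), which acts in S phase and G2, was at 56.1, 53.1 and 59.7 CPM in control and 2.54, 2.66 and 1.98 CPM at 5 µM on day 4, a change of -4.08 ± 0.14 (adjusted p = 5.0e-22). The inhibitor Cdkn1c was at 84.2, 106 and 99.1 CPM and 3.67, 5.50 and 7.88 CPM, a change of -3.91 ± 0.25 (adjusted p = 5.7e-15), so an activator and an inhibitor of the cycle were both lower. The repressor E2f7 changed by -1.47 ± 0.31 (adjusted p = 9.8e-04) on day 1 and -1.44 ± 0.31 (adjusted p = 2.0e-04) on day 4. On day 4 the inhibitor Cdkn1b and the kinase Cdk6 were higher, as was Ccnd1, the cyclin of early G1. At 2 µM 3 were lower on day 1 (Ccna2, E2f7 and Ccnd3), or 1 (Ccna2) without the pair, and Ccna2 was lower on day 2. On day 4 6 were lower, or 10 without the pair, and Ccnd1 was higher, with Cdkn1c changed by -2.66 ± 0.25 (adjusted p = 2.9e-09) and Ccna2 by -1.51 ± 0.14 (adjusted p = 2.8e-09). Of all genes, 1.48%, 0.247% and 3.74% were lower at 2 µM on days 1, 2 and 4, and 5.11% were higher on day 4. Without the pair 0.672% were lower on day 1, and the day 4 share was not computed.

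Of the 15 mitosis markers, 2 rose at 5 µM on day 1 and the other 13 did not pass, against 4.29% higher of all genes. At an unadjusted p below 0.05 2 were lower and 4 higher, and 3 were higher by edgeR and by DESeq2. Cenpa, the centromeric histone, rose by 0.99 ± 0.21 (adjusted p = 0.0011) and Cdc20 by 0.64 ± 0.20 (adjusted p = 0.025), and the median of the 15 was -0.03. Without the day 1 pair 2 were lower and 1 higher, with a median of -0.14, against 8.79% lower and 4.27% higher of all genes. Top2a then changed by -0.86 ± 0.14 (adjusted p = 4.5e-05), Aurkb by -0.83 ± 0.25 (adjusted p = 0.024) and Cenpa by 0.96 ± 0.25 (adjusted p = 0.0072), and Cdc20 no longer passed. All 15 fell on day 2, with a median of -2.50, and all 15 on day 4, with a median of -2.52, against 13.4% and 28.6% of all genes. Top2a, the topoisomerase of chromosome separation, was at 103, 74.7 and 100.5 CPM in control and 5.32, 4.68 and 3.21 CPM at 5 µM on day 4, a change of -4.12 ± 0.20 (adjusted p = 6.9e-18). At 2 µM 5 of the 15 were lower on day 1 and 11 on day 4, against 1.48% and 3.74% of all genes. Without the pair 1 (Top2a) was lower on day 1, against 0.672% of all genes, and 11 on day 4, where the share among all genes was not computed. On day 2 limma called none, edgeR called 1 lower and DESeq2 3, and 11 were lower at an unadjusted p below 0.05. Without the pair Top2a and Cdk1 passed on day 2. The difference between the lists was not tested.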

How the data were processed

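RNA-seq was made from 30 C2C12 libraries in 10 groups of 3, with TRIzol extraction and an Illumina TruSeq kit per the labels' protocols. The deposited signal is a scaled count per gene: in every column the authors' values were whole reads (100% within 0.02 of a read) times 1 constant, from 0.0380 to 0.0584 CPM a read. For the aligner, genome build, strand and scaling, the entry is: not given in the sources used here. Groups came from the labels, and no pair of libraries within a group agreed within sampling noise (lowest chi-square per degree of freedom 9.60).

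Genes with at least 1 CPM in at least 3 libraries (12946) were tested with limma 3.58.1 in R 4.3.3 on log2(CPM + 1), with the group as the model, a trended prior, 20 residual degrees of freedom and Benjamini-Hochberg adjustment within each of 18 comparisons. Alternatives were edgeR 4.0.16 (quasi-likelihood test) and DESeq2 1.42.0 on the recovered reads, other filters, pseudocounts and scaling, a replicate block, only the groups compared, and libraries left out. The code was tested on simulated data.

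The members and gene lists were chosen with earlier results of these data known. Named by rule were 12 lead genes spread over the roles, the 3 largest falls and rises among called members, and up to 5 called members against the majority. Other names were chosen after their values were seen. Lead genes are given in full only for control day 1 and the comparisons with 0 µM. Promoters came from RefSeq (GRCm38.p6) and overlaps from GENCODE M21. Not matched to a promoter were Mcm4, Gins1, Gins2, Pole, Rfc2 and Ccne2.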

Additional observations from a re-analysis of the deposited data

Results flagged for a closer look

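For 20 results the effect of 5 µM against control differed between days by limma's test of the difference. From day 1 to day 2 it became more negative for Tk1 (-2.34), Mcm10 (-1.93), Pole (-1.53), Uhrf1 (-1.48), Prim1 (-1.11), Mcm5 (-1.07), Mcm7 (-0.77) and Rrm2 (-0.49). Without the pair of day 1 libraries with transcripts of other cell types, Tk1 (-2.03), Mcm10 (-1.83), Uhrf1 (-1.32) and Mcm7 (-0.74) still passed.

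From day 2 to day 4 it became more positive for Cdt1 (1.96), Fen1 (1.03), Pcna (1.02), Mcm3 (0.97), Slbp (0.96), Dut (0.82), Mcm6 (0.79), Mcm4 (0.78), Rfc3 (0.78) and Mcm7 (0.73), and more negative for Rfc4 (-0.91) and Rfc2 (-0.77). Leaving out 1 library ended the calls of Mcm5, Pole and Rrm2 in the first set and of Mcm3, Rfc2, Rfc3, Rfc4 and Dut in the other.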

How the results depend on the processing

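Over 18 comparisons in 2 directions, 541 of 600 recomputed counts of called members stayed within 1.5 times the reported count. Counts of 0 that stayed at 0 are among the 541, which raises that number. Without the pair of day 1 libraries, the count at 2 against 0 µM went from 14 to 9 lower on day 1 and from 0 to 2 on day 2. At 5 against 2 µM on day 1 it went to 2 lower and 0 higher, at 5 µM from day 1 to day 2 from 12 to 5 lower, and the change of the 5 µM effect from 8 to 4 more negative and from 0 to 1 more positive. With no filter on low values, 12 were lower at 5 against 0 µM on day 1 and 5 had a more negative effect on day 2. At 2 against 0 µM on day 2 a filter of 5 CPM gave 1 lower, a pseudocount of 5 gave 3 and DESeq2 gave 5. A pseudocount of 5 also left 1 more negative effect from day 2 to day 4. Shares among all genes were computed with all libraries and, without the pair, only for 2-group comparisons using treated day 1 libraries. For the other settings here and below they were not computed, so those counts are not set against all genes.

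Fitting only the groups compared gave 4 lower at 5 against 0 µM on day 1. At 2 against 0 µM it gave 0, 8 and 8 lower on days 1, 2 and 4. At 5 against 2 µM it gave 0 lower and 0 higher on day 1 and 0 higher on day 2. At 5 µM it gave 5 lower and 2 higher from day 1 to day 2 and 1 higher from day 2 to day 4, and it left 1 more negative effect from day 2 to day 4. This fit uses fewer samples.

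With 1 library left out, counts ranged as follows. In control cells from day 2 to day 4, 12 to 16 were lower. At 5 against 0 µM on day 1, 8 to 21 were lower. At 2 against 0 µM, 7 to 15, 0 to 1 and 9 to 14 were lower on days 1, 2 and 4, the 1 on day 2 without replicate 1 of 2 µM. At 5 against 2 µM, 1 to 2 were lower and 0 to 1 higher on day 1, and 0 to 1 higher on day 2. At 5 µM, 5 to 13 were lower from day 1 to day 2 (5 without replicate 3 of day 1) and 1 to 4 higher from day 2 to day 4. At 2 µM, 9 to 14 were higher from day 1 to day 2. The effect became more negative for 5 to 11 and more positive for 0 to 1 from day 1 to day 2. It was 5 without replicate 3 of control day 1, replicates 1 or 2 of control day 2, or replicate 3 of 5 µM on day 1 or day 2. It became more negative for 0 to 3 from day 2 to day 4, with 0 without replicate 2 of control day 2 or replicate 3 of 5 µM on day 4. The cause was not tested.

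No called member changed sign. Signs were followed for 368 member results, and those among them that changed were uncalled and near 0. At 5 against 0 µM they were Rfc3 on day 2 (-0.042 to 0.11), and Mcm4 (-0.058 to 0.16) and Cdc45 (-0.31 to 0.017) on day 4. At 2 against 0 µM on day 4 they were Cdc45 (-0.023 to 0.31) and E2f1 (-0.46 to 0.014). Uncalled results outside this set also changed sign, not all of them near 0, and were not listed in full. Without the pair of day 1 libraries, Cdt1 at 5 against 0 µM on day 1 went from 0.10 to below 0. In the same fit, Ccne2 went from -0.67 to above 0 in the change of the 5 µM effect from day 1 to day 2.

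The replicate block kept all counts within 1.5 times, for example 32 lower at 5 against 0 µM on day 2, and 361 of 368 member results on the same side of the threshold. Same-numbered libraries did not deviate together (r from -0.226 to 0.0920 over 16 comparisons). This cannot show that they came from separate cultures, and the labels do not say whether a number marks a shared culture or day. Depth limits the lowest genes: 8 values rested on 3 reads or fewer.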
